A study of Homo sapiens with 6 samples.

Results

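The BTG and TOB genes encode a family of antiproliferative proteins. Members were taken as the genes BTG1, BTG2, BTG3, BTG4, TOB1 and TOB2, each through the probe sets that the platform annotation assigns to that gene alone. This gave 5 measured genes on 9 probe sets, among 17534 genes on the array that had such a probe set. BTG1 had 3 probe sets, TOB1 and BTG4 had 2 each, and BTG3 and TOB2 had 1 each. BTG2 was not analysed here.

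Expression had been measured on Affymetrix PrimeView arrays, which read the 3′ part of transcripts, in MM.1R, a human multiple myeloma line that does not respond to glucocorticoids. The 3 control arrays were from MM.1R cells infected with the control hairpin vector shCtrl, and the 3 treated arrays were from MM.1R cells given Epirubicin Hydrochloride, an anthracycline that traps topoisomerase II on DNA. All cells were of the same line in the same serum-containing medium. Only the control labels mention a vector, so the drug and the absence of the vector cannot be told apart, and neither a dose nor a duration is given. Separate cultures are not stated for the arrays within a group, so p-values may cover technical spread alone.

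Proteins of this family share an N-terminal domain that binds the deadenylase subunits CNOT7 and CNOT8 of the CCR4-NOT complex, which shortens the poly(A) tail of mRNAs and so starts their decay. TOB1 and TOB2 carry in addition a long C-terminal part that binds the cytoplasmic poly(A)-binding protein PABPC1. Forced expression of members slows the passage from G1 to S phase in many cell types, and in lymphocytes BTG1 is known for its part in quiescence and for recurrent mutation in B cell lymphomas.

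BTG1 and TOB1 rose with epirubicin, 1.55-fold and 1.56-fold on their brightest probe sets. BTG3 was higher by a smaller step, 1.13-fold, which passed on its p-value but lay under the fold threshold. BTG4, known from the clearance of maternal mRNA in oocytes, and TOB2, the close paralogue of TOB1, were not called. A gene was called at a limma adjusted p under 0.05 together with a fold change of at least 1.3, or 0.379 on the log2 scale, the thresholds that the series' design text states. By this rule 2 of the 5 measured members were called higher and 0 lower, where 4.36% of all genes were called higher and 2.14% lower. The median log2 fold change was 0.18 over the 5 members and 0.02 over all genes. All 5 members had a log2 fold change above 0 on their brightest probe sets, as had 55.7% of all genes, and the sign of BTG4 turned with the probe set. In bulk RNA, fewer cells of a kind and less RNA per cell cannot be told apart.

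The 250 bases upstream of the start sites of BTG1, TOB1 and BTG3 are shown because these were the members that passed on their p-value. They are RefSeq windows of GRCh38.p14, where all 5 measured members matched, with 6 windows in all because TOB1 has 2 start sites. Each is written 5′ to 3′ along the gene's own strand, the minus strand in all 4 cases, and capitals mark matches on either strand to the motifs described next.
BTG1 chr12:92145847-92146096: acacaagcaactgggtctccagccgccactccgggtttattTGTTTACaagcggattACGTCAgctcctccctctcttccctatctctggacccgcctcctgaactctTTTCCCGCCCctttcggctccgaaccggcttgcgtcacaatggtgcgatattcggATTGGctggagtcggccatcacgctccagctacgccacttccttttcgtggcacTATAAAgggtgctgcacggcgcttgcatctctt
TOB1, inner start site, chr17:50866355-50866604: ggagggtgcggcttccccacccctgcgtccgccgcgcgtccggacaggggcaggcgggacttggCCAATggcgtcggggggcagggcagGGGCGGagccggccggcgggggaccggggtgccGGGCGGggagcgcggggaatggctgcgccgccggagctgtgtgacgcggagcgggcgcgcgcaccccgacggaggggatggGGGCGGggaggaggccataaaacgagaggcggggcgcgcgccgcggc
TOB1, outer start site, chr17:50867979-50868228: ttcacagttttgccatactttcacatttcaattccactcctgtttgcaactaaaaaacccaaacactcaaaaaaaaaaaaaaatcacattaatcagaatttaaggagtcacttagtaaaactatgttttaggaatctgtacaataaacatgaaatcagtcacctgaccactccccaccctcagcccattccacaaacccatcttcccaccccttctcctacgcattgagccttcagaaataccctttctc
BTG3 chr21:17612902-17613151: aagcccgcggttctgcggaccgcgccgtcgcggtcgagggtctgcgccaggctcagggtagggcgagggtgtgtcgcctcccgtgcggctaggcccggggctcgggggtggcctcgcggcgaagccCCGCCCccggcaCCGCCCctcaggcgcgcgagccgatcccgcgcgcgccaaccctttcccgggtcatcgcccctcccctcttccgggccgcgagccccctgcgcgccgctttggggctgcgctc

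The searched motifs, chosen after these windows had been seen, were the forkhead motif TGTTTAC, the E2F motif TTTCCCGC, the CCAAT box CCAAT, the TATA box TATAAA, the CRE core ACGTCA, the GC box GGGCGG, the CHR element TTTGAA, and, by name, the NF-kB site. The BTG1 window held 1 forkhead match at 209 to 203 bases upstream of the start, where 2.98% of the 35116 RefSeq windows hold one. It also held 1 E2F match at 142 to 135 bases upstream, against 1.39% of windows, and 1 CRE core at 193 to 188 bases, against 7.10%. A TATA box stood at 33 to 28 bases upstream, against 10.7% of windows, and a CCAAT box on the other strand at 87 to 83 bases. Its GC box, at 138 to 133 bases, overlapped the E2F match.

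The inner TOB1 window held 1 CCAAT box, which 32.0% of windows hold, and 3 GC boxes, which 42.6% of windows hold at least once. The outer TOB1 window held 0 of the 8 motifs, and the BTG3 window held 2 GC boxes alone. GC content was 56.4% for BTG1, 80.4% and 38.4% for the inner and outer TOB1 windows and 78.4% for BTG3, with a median of 58.0% over all windows. No window of the 5 members held the NF-kB site or the CHR element, which 9.96% and 13.3% of all windows hold. A match is a string of letters in these windows and does not show a bound site.

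BTG1, first found at a translocation in a B cell chronic lymphocytic leukaemia, was read at log2 values of 10.32, 10.38 and 10.36 on the control arrays and 10.97, 11.00 and 11.00 on the epirubicin arrays, on its brightest probe set, 11733023_s_at. Every epirubicin array lay above every control array, and the gap was far wider than the spread within a group. The group means were 10.36 ± 0.03 and 10.99 ± 0.02 (SD, n = 3). The log2 fold change was 0.63 (SE 0.03, CI 0.55 to 0.71, limma adjusted p = 6.02e-05). Ranked by signed change, BTG1 stood at place 261 of the 17534 genes.

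A further BTG1 probe set, 11733024_x_at, gave 9.68, 9.64 and 9.69 in control and 10.28, 10.35 and 10.39 with epirubicin. Its change of 0.67 (SE 0.04) was again called, and its groups did not overlap either. The third, 11733022_at, was dim, at 4.05, 4.15 and 4.50 in control and 4.04, 4.23 and 4.20 with epirubicin, below the median of all values of 5.54. It was not called and its groups overlapped (-0.08, CI -0.36 to 0.21). The mean over the 3 probe sets therefore changed by 0.41, less than the 2 bright ones, and was still called. The suffix x marks a probe set whose probes can also match other transcripts. The brightest BTG1 probe set and both TOB1 probe sets carry the suffix s instead, and whether their probes match further transcripts was not tested.

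TOB1, named as a transducer of the receptor ERBB2, was read at 9.18, 9.38 and 9.24 in control and 9.95, 9.86 and 9.92 with epirubicin on its brightest probe set, 11720253_s_at. The lowest epirubicin array lay above the highest control array, control replicate 2, which stood apart from the other two controls. Means were 9.27 ± 0.10 and 9.91 ± 0.04 (SD, n = 3). The log2 fold change was 0.64 (SE 0.06, CI 0.50 to 0.78, limma adjusted p = 4.75e-04), place 252 of the 17534 genes. Without control replicate 2 it was 0.70, and it was called in that fit as well.

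The other TOB1 probe set, 11758325_s_at, gave 7.90, 7.95 and 7.96 in control and 8.55, 8.53 and 8.44 with epirubicin. It rose by 0.57 (SE 0.04), so both TOB1 probe sets were called and their groups did not overlap. Over the 9 probe sets of the family 4 were called higher, 2 of BTG1 and 2 of TOB1, and 0 lower, where 3.65% of all probe sets were called higher and 2.62% lower.

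**Figure D1:**
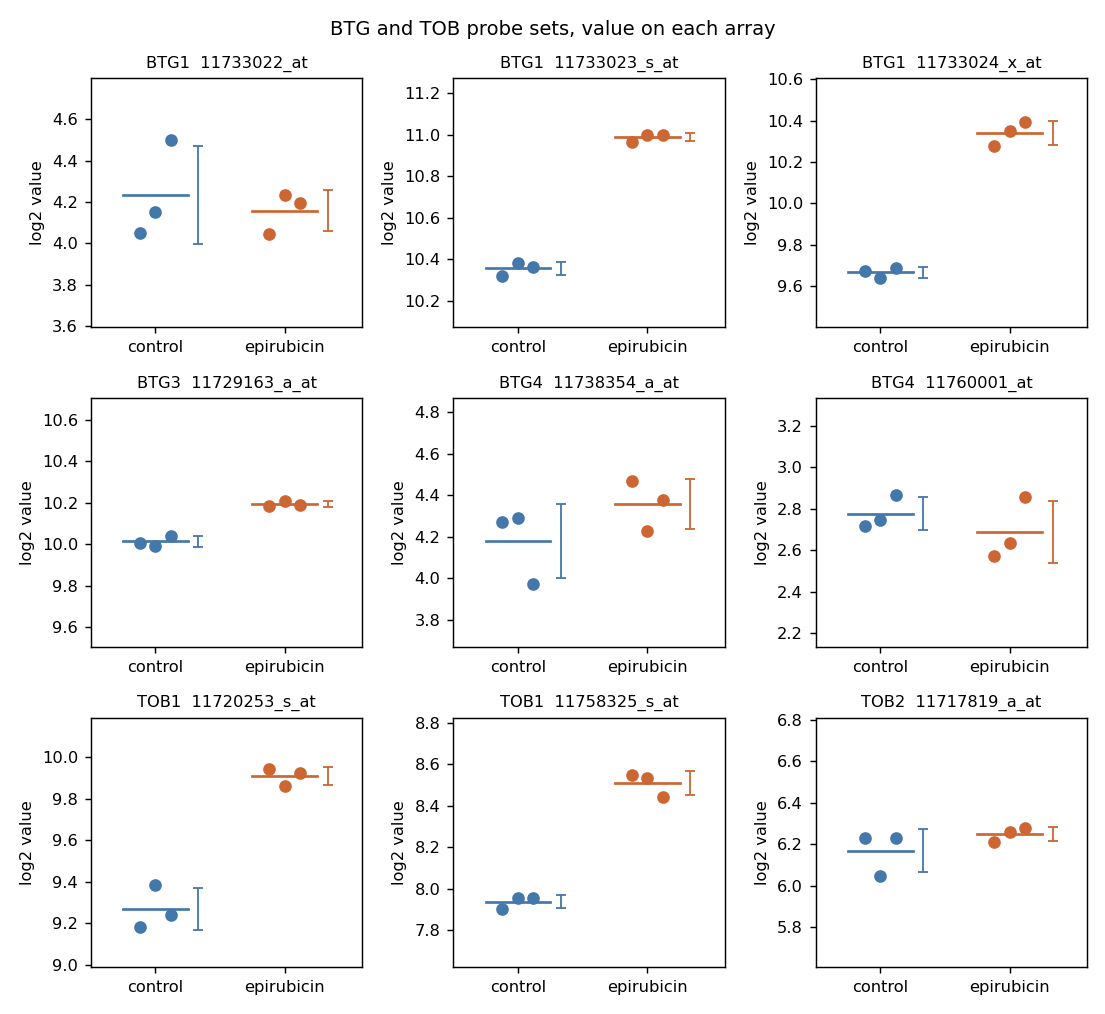
Log2 value of each of the 9 BTG and TOB probe sets on each array, control in blue and epirubicin in orange; points are arrays, horizontal lines are group means, and bars to the right are ± 1 SD (n = 3). Every panel spans the same height on the log2 scale, and the epirubicin arrays lie above the control arrays without overlap in BTG1 11733023_s_at and 11733024_x_at, in both TOB1 probe sets and, by a smaller gap, in BTG3.

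BTG3, also called ANA, binds the transcription factor E2F1 and the checkpoint kinase CHK1. It was read at 10.01, 9.99 and 10.04 in control and 10.18, 10.21 and 10.19 with epirubicin. The groups did not overlap, and the difference was small and even across arrays. Means were 10.01 ± 0.02 and 10.19 ± 0.01 (SD, n = 3), and the log2 fold change was 0.18 (SE 0.03, CI 0.11 to 0.25, limma adjusted p = 0.00576). BTG3 was not called because its log2 fold change lay under the fold threshold, and the interval lay wholly under it as well. At an adjusted p under 0.05 with no fold threshold 3 of the 5 members were higher, BTG1, TOB1 and BTG3, where 15.6% of all genes were. The epirubicin arrays all lay above the control arrays in the same 3 members, and did so in 23.8% of all genes.

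TOB2, which shares the domain structure of TOB1, was read at 6.23, 6.05 and 6.23 in control and 6.21, 6.26 and 6.28 with epirubicin. The groups overlapped, and control replicate 2 was the low array. The difference was 0.08 (SE 0.06, CI -0.06 to 0.22, limma adjusted p = 0.353). The interval holds no change and a small rise alike, and lies below the fold threshold. Without control replicate 2 the difference was 0.02.

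BTG4 was read near the floor of the arrays, at 4.27, 4.29 and 3.97 in control and 4.47, 4.23 and 4.38 with epirubicin on its brighter probe set. Its arrays overlapped, and the whole range lay between the lower quartile of an array, 3.84 to 3.90, and the median of all values. The difference was 0.18 (SE 0.10, CI -0.06 to 0.42, limma adjusted p = 0.247), and this interval reaches past the fold threshold. The other BTG4 probe set, from 2.57 to 2.87 over all arrays, changed by -0.09 (CI -0.28 to 0.11), so the sign depended on the probe set. Without detection calls it could not be said whether BTG4 was expressed.

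**Figure D2:**
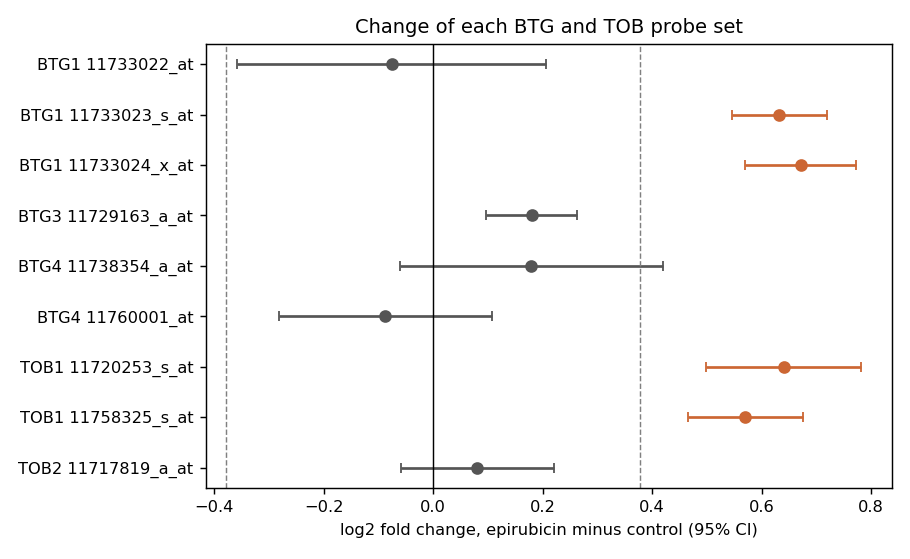
Log2 fold change, epirubicin minus control, of each BTG and TOB probe set with its 95% confidence interval from limma; called probe sets are in orange, and dashed lines mark the 1.3-fold threshold on either side of 0. The intervals of 2 BTG1 and 2 TOB1 probe sets lie wholly beyond the threshold, while that of BTG3 lies between 0 and the threshold.

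Whether members moved by different amounts was asked within each array, as the difference between the log2 values of a pair, which shows unequal change and not a level of one gene against another. There were 10 pairs. The difference between BTG1 and TOB1 changed by -0.008 (95% interval -0.16 to 0.15 from the pooled SD over arrays), and its groups overlapped. This compares their brightest probe sets; as means over probe sets BTG1 changed by 0.41 and TOB1 by 0.61. That of TOB1 and TOB2 changed by 0.56 (interval 0.21 to 0.91), that of BTG1 and BTG3 by 0.45 (0.38 to 0.52) and that of BTG3 and TOB1 by -0.46 (-0.67 to -0.25). In 6 of the 10 pairs, each of which sets BTG1 or TOB1 against one of the other 3 members, the groups did not overlap. They are all the pairs of a called with an uncalled member, so the count restates the calls and adds no further result. No share over other pairs of genes was worked out. Each of these 6 had an exact two-sided permutation p = 0.1, the smallest that 3 against 3 arrays allow, and 0.167 adjusted over the 10 pairs, so this design could not pass the threshold.

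**Figure D3:**
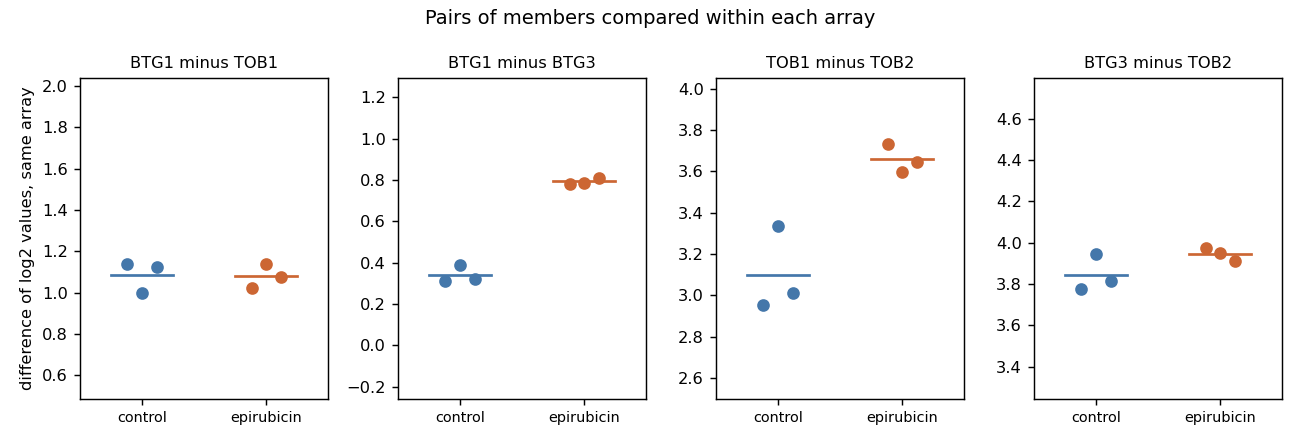
Difference between the log2 values of 2 members on the same array, for 4 of the 10 pairs, with control in blue and epirubicin in orange; points are arrays and lines are group means (n = 3). The height of a panel depends on the probes and carries no meaning across panels; BTG1 minus TOB1 overlaps between groups, and BTG1 minus BTG3 and TOB1 minus TOB2 do not.

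By a rule based on the likeness of values centred on their own mean over the 6 arrays, the genes closest to BTG1 among 9934 compared were SERPINB1, an inhibitor of neutrophil proteases, SGK1, a kinase induced by serum and glucocorticoids, and RBBP9. Their root mean square differences from BTG1 were 0.015, 0.015 and 0.018 on the log2 scale. Those closest to TOB1 were NOD2, a sensor of bacterial cell wall fragments (0.042), MEX3B, an RNA-binding protein (0.048), and again RBBP9 (0.049). These genes rose by 0.61 to 0.65 and were all called higher. For BTG3 they were TMEM184B, UBE2Z and RAP2A, with changes of 0.18 to 0.20, for TOB2 RIPK2, ZNF91 and HERC4, and for BTG4 RALGAPA1, TMEM53 and STMN2, and 0 of these 9 were called. Likeness over 6 arrays in 2 groups largely means a difference of the same size between the groups.

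Of 11 subunit genes of CCR4-NOT, the deadenylase complex that the family recruits, 0 were called in either direction in limma. Over all genes 6.51% were called, so 0 of 11 lies near that share. Of the 11, 5 had an unadjusted p under 0.05 (39.4% of all genes had). The log2 fold changes of all 11 ran from -0.18 to 0.06 with a median of -0.06. At an adjusted p under 0.05 with no fold threshold 4 were lower and 0 higher, where 13.5% of all genes were lower. CNOT7, a catalytic subunit bound directly by BTG and TOB proteins, gave 10.53 ± 0.03 in control and 10.34 ± 0.03 with epirubicin (SD, n = 3), a difference of -0.18 (CI -0.27 to -0.10) that was 1 of those 4; the median over its 6 probe sets was -0.12. CNOT8, its paralogue, differed by 0.012 (CI -0.10 to 0.13), a sign that turned with the mean of its probe sets (-0.036) and when arrays were centred on their medians (-0.021). CNOT1, the scaffold of the complex, differed by -0.13 (CI -0.23 to -0.03, limma adjusted p = 0.0615).

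Poly(A)-binding proteins and the deadenylases outside CCR4-NOT were called in 0 of 16 genes in limma, where 6.51% of all genes were. Their median was 0.02, their changes ran from -0.26 to 0.34, and 8 lay above 0 and 8 below. Of the 16, 9 had an unadjusted p under 0.05, against 39.4% of all genes. Probe sets other than the brightest were called lower in PABPC4 (1 of 2), PARN (1 of 3) and PDE12 (2 of 3). PABPN1, the nuclear poly(A)-binding protein, stood just under the threshold at 0.34, and was called at 0.38 without control replicate 2 and at 0.38 without epirubicin replicate 1. PABPC1, which TOB proteins bind, differed by -0.09 (CI -0.16 to -0.02, limma adjusted p = 0.0714), and the mean over its 3 probe sets by -0.15 (limma adjusted p = 0.00783), under the fold threshold. Decapping and 5′ to 3′ decay, the steps that follow deadenylation, gave 1 of 18 genes higher and 0 lower (all genes: 4.36% and 2.14%). The higher one was DCP1B, a decapping cofactor, at 7.32 ± 0.04 in control and 7.82 ± 0.06 with epirubicin (SD, n = 3; log2 fold change 0.50, SE 0.04). Only 1 of its 2 probe sets was called and their mean changed by 0.26, which was not called. LSM5, on 1 of its 2 probe sets, and LSM14B, on 1 of its 5, had a dimmer probe set called lower. The list's median was -0.13 and 16 of its 18 genes lay below 0, where 44.3% of all genes did. Of the 18, 10 were lower at an adjusted p under 0.05 with no fold threshold, where 13.5% of all genes were.

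Other adaptors that bring CCR4-NOT to chosen mRNAs were higher in 1 of 17 measured genes and lower in 0 (all genes: 4.36% and 2.14%). Their median was 0.08. The higher one was ZFP36L1, which binds AU-rich elements, at 8.32 ± 0.02 and 8.74 ± 0.06 (SD, n = 3; 0.42, SE 0.04). It was called on 1 of its 6 probe sets, the only one whose mean lay above the median of all values. The mean over the 6 changed by 0.16 and was not called. Without the fold threshold, 7 of the 17 adaptors were higher at an adjusted p under 0.05, where 15.6% of all genes were. Another 2 were lower, where 13.5% of all genes were.

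Among 19 measured genes reported as protein partners of the family, 0 were higher and 1 was lower (all genes: 4.36% and 2.14%). Their median was 0.01. The lower one was PRMT1, an arginine methyltransferase whose activity BTG1 modulates, which fell from 10.93 ± 0.03 to 10.44 ± 0.05 (SD, n = 3; -0.49, SE 0.04, limma adjusted p = 2.55e-04). That was its brightest probe set. The 2 dimmer ones changed by 0.019 and -0.17 and were not called, and the median over the 3 was 0.019. CHEK1, which encodes CHK1, differed by 0.015 (CI -0.08 to 0.11), with a sign that turned to -0.018 when arrays were centred on their medians. SMAD4, the shared subunit of SMAD complexes, differed by -0.03 (CI -0.11 to 0.05), by 0.00066 after quantile normalization and by -0.16 with the median over its 7 probe sets (limma adjusted p = 0.026), so its value depended on the probe set.

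The median over 10 measured regulators of the BTG and TOB genes or proteins was 0.05. Of the 10, 0 were higher and 1 was lower (all genes: 4.36% and 2.14%). It was SKP2, a subunit of the ubiquitin ligase that marks cell cycle inhibitors for degradation, at 6.76 ± 0.01 and 6.15 ± 0.11 (SD, n = 3; -0.61, SE 0.06). It was called on 1 of 2 probe sets, and their mean of -0.37 lay just under the threshold. FOXO3, a forkhead factor that acts on BTG1 in other cells, differed by 0.11 (CI 0.03 to 0.19, limma adjusted p = 0.0419). This was a 1.08-fold step under the fold threshold. Over the alternatives the limma adjusted p of FOXO3 ran from 0.00017 to 0.147, the highest with arrays centred on their medians.

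Cell division genes gave 3 of 9 lower and 0 higher, where 2.14% of all genes were called lower and 4.36% higher. CCNB1, which encodes cyclin B1, fell by 1.79 on the log2 scale (SE 0.04) and MYC by 0.52 (SE 0.03). The third was the proliferation marker MKI67, named after its value was seen, which fell by 0.52. CCND1, the cyclin D1 gene, described in other cells as held down by this family, was read at 5.62 ± 0.08 and 5.43 ± 0.06 (SD, n = 3), near the median of all values. It differed by -0.19 (CI -0.31 to -0.06, limma adjusted p = 0.0385) and was not called. Over its 4 probe sets the mean differed by -0.057 and the median by -0.017, with limma adjusted p of 0.515 and 0.800. The other D cyclin genes of the list were brighter and not called. CCND2 was at 12.26 in control and 12.28 with epirubicin (0.02), and CCND3 at 7.73 and 7.69 (-0.04).

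Of 8 genes of lymphocyte quiescence outside the family, 0 were higher and 1 was lower (all genes: 4.36% and 2.14%). Their median was 0.12. The lower one was KLF2, a transcription factor that keeps T cells and B cells resting, which fell from 8.99 ± 0.01 to 8.25 ± 0.03 (SD, n = 3; -0.75, SE 0.03, limma adjusted p = 2.97e-05) on both of its probe sets. Without the fold threshold, 4 of the 8 were higher at an adjusted p under 0.05, where 15.6% of all genes were. KLF2 alone was lower, where 13.5% of all genes were. TSC1 rose most among the 8, by 0.36, just under the fold threshold. BTG1 rose and KLF2 fell on these arrays.

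**Figure D4:**
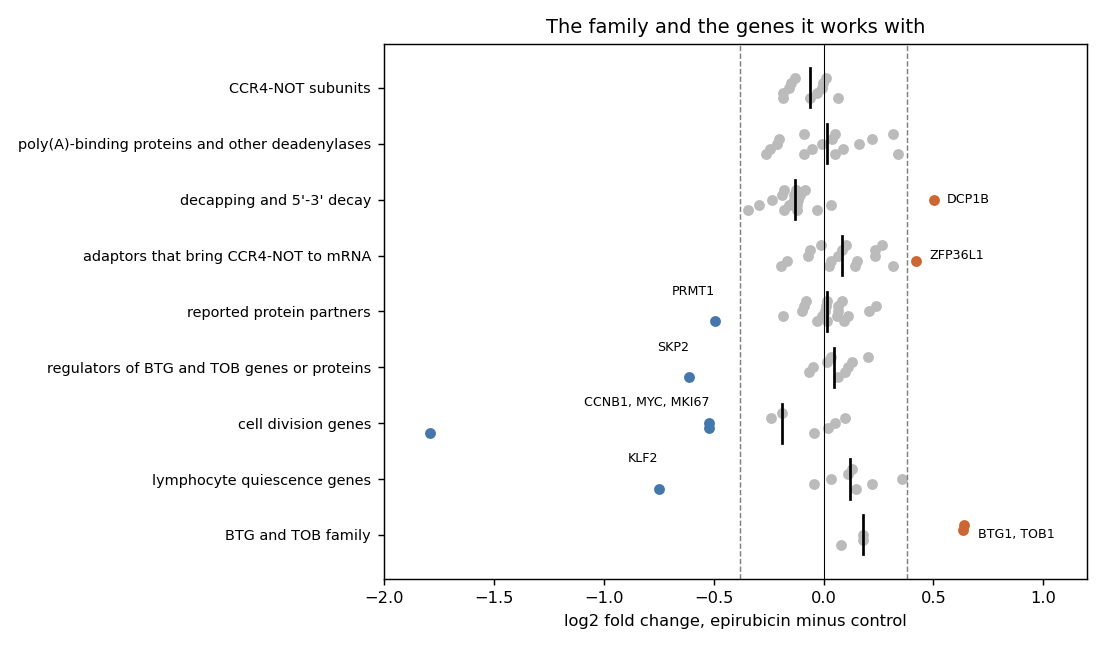
Log2 fold change, epirubicin minus control, of the 5 measured family members and of the genes of 8 related lists, 1 point per gene; orange and blue points were called higher and lower, grey points were not called, black bars are list medians and dashed lines mark the 1.3-fold threshold. Named points are the called genes, BTG1 and TOB1 in the family, and DCP1B, ZFP36L1, PRMT1, SKP2, CCNB1, MYC, MKI67 and KLF2 outside it.

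Array medians ran from 5.52 to 5.57, and arrays of a group correlated at 0.998 across probe sets, where probe sets are not replicates. Of 10 plasma cell markers, all had a mean above the median of all values. Of them 2 were called lower, CD38 and IRF4, where 2.14% of all genes were. The epithelial and stromal markers, 5 and 6 genes, all lay below that median and 0 were called, and of 8 T and NK cell markers 7 lay below it and 0 were called. Over all genes 6.51% were called, so counts of 0 in such short lists lie near that share. Of 8 myeloid markers 3 were called higher, ITGAM, CD68 and S100A9, where 4.36% of all genes were. The 8 together had a median log2 fold change of 0.15. The summed log2 values of all 8 ran from 30.5 to 30.6 in control and from 35.5 to 36.1 with epirubicin, a rise carried mostly by ITGAM: without it they ran from 27.3 to 27.4 and from 28.5 to 29.1. The means over all 6 arrays lay below the median of all values for 7 of the 8. ITGAM was counted there, although it had the largest rise of the list, 3.75 on the log2 scale. The part of these markers in the BTG1 and TOB1 results was not tested.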

How the data were processed

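The values were the authors' deposited log2 expression values, 1 for each of 47481 probe sets on each of 6 arrays. The scale was read from the values (1.41 to 13.73). The submitters' processing notes name the affy package; how background, normalization and probe summary were handled is not given in the sources used here. A normalization between arrays would hide a change in total RNA per cell. Precision is limited by the number of arrays.

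Probe sets with a single symbol (43976) were named through the platform annotation, with symbols updated by Entrez number against RefSeq GRCh38.p14 (43954 matched). Each of the 17534 genes was represented by its probe set with the highest mean. All arrays were fitted in limma 3.58.1 (R 4.3.3; lmFit, eBayes, no covariate) with Benjamini-Hochberg adjustment over all genes, or over all probe sets for single probe sets; CI are 95% intervals. The fit was tested on simulated data.

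The family members and the 8 related lists were chosen with earlier results of these data known. Named genes were all members, 12 preset genes (1 of them not reported here), up to 2 called genes per list and direction whose groups did not overlap and whose higher mean exceeded 5.54, the nearest measured protein-coding neighbours and the 3 most alike genes of each member. Alternatives were the mean or median over probe sets, removal of dim genes, quantile normalization, median centring, a trended robust eBayes fit, no fold threshold, the replicate number as a block, and leaving out each array.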

Additional observations from a re-analysis of the deposited data

How the results depend on the processing

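The calls of BTG1 and TOB1 held under all 14 alternatives, with log2 fold changes of 0.41 to 0.67 and 0.60 to 0.70, and 0 members were called lower under any. BTG3, TOB2 and BTG4 kept their sign, BTG4 being absent where dim genes were removed. Leaving out single arrays gave 0.61 to 0.65 for BTG1, 0.60 to 0.70 for TOB1, 0.17 to 0.19 for BTG3, 0.02 to 0.11 for TOB2 and 0.08 to 0.24 for BTG4. With no fold threshold BTG3 (0.18) was called as well, giving 3 members, and over all genes 2744 (15.6%) were higher and 2362 (13.5%) lower. That setting also gave 4 CCR4-NOT genes lower, 3 poly(A) genes higher and 3 lower, 10 decapping genes lower, 7 adaptors higher and 2 lower, 2 partners higher and 2 lower, 3 regulators higher, 5 cell division genes lower and 4 quiescence genes higher. With the mean or the median over probe sets, 0 decapping genes and 0 adaptors were higher and 0 partners and 0 regulators lower, because DCP1B, ZFP36L1, PRMT1 and SKP2 were each called on 1 probe set, and with the median 1 poly(A) gene was lower, the mitochondrial deadenylase PDE12 (-0.45, against -0.20 on its brightest probe set). Leaving out single arrays gave 0 to 1 poly(A) genes higher, PABPN1. The signs of uncalled genes near 0 turned in places. CNOT8 was at -0.036 and -0.017 with the mean and median over probe sets, -0.021 with centred arrays and -0.025 to 0.055 without single arrays. CHEK1 was at -0.021 with the median, -0.018 with centred arrays and -0.016 to 0.033 without single arrays. SMAD4 was at 0.00066 after quantile normalization and at -0.16 with the median. PRMT1, called on its brightest probe set, was at 0.019 with the median.

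Replicate numbers shared between groups did not mark pairs. Deviations of same-numbered arrays from their group means correlated at -0.03, 0.02 and 0.001, and 1 of 6 arrays correlated best with its own number. With the replicate block 755 genes were higher and 372 lower, against 765 and 376, and BTG1 and TOB1 were still called (0.63 and 0.64). Dim probe sets, among them BTG4, have no detection call, which limits what their values can show.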

Other observations

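The nearest measured protein-coding genes on either side of each member, by their order in RefSeq, were mostly not called. Beside BTG1 lie DCN, the stromal proteoglycan decorin, which differed by 0.02 (CI -0.21 to 0.24), and PLEKHG7, which differed by 0.10 (CI -0.06 to 0.26), both dim and with overlapping groups. Beside TOB1 lie WFIKKN2 (0.10, CI -0.15 to 0.35) and SPAG9, a scaffold of JNK signalling (0.06, CI -0.03 to 0.14, and -0.009 as a mean over its 9 probe sets). Of these 4 genes, 0 were called in limma.

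Of the 12 neighbours of the 6 family genes, 1 was called, where 6.51% of all genes were. It was CXADR, the coxsackievirus and adenovirus receptor, which lies beside BTG3. It rose from 7.85 ± 0.01 to 8.36 ± 0.05 (SD, n = 3; log2 fold change 0.51, SE 0.04, limma adjusted p = 1.77e-04) on 1 of its 4 probe sets, and the mean over the 4 changed by 0.33 and was not called. C21orf91 on the other side of BTG3 was higher by 0.20 (CI 0.11 to 0.28), short of the fold threshold as BTG3 was. POU2AF1, a coactivator of B cell transcription that lies beside BTG4, was at 11.76 ± 0.01 and 12.01 ± 0.01 (SD, n = 3), a difference of 0.25 (CI 0.18 to 0.32) that was not called.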
